A study of Mus musculus with 6 samples.

Results

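The 10 genes described here encode transcription factors that govern whether an activated CD8+ T cell becomes a short-lived effector cell or a memory cell. They were chosen by name, as the rows for Tbx21, Eomes, Tcf7, Lef1, Bach2, Id2, Id3, Prdm1, Zeb2 and Bcl6, out of the 16281 genes of the deposited count table. All 10 passed the filter on low counts, which kept 11698 genes for testing. The RNA came from CD8+ T cells of OT1 mice of the C57BL/6 strain with the genotype Tg(TcraTcrb)1100Mjb, a transgene that gives the T cells of both groups a receptor for a peptide of ovalbumin. The sample labels give the spleen as the tissue, while the design text of the series also names lymph nodes. The age of the mice is not given in the sources used here. The cells of both groups were activated for 48 h with plate-bound anti-CD3 at 2 μg/ml and soluble anti-CD28 at 2 μg/ml in the presence of IL-2 at 20 ng/ml and were then expanded with IL-2 for 3 days. One group, GSK, received GSK2879552 at 0.5 μM throughout, an irreversible inhibitor of the histone demethylase LSD1, and the other, Veh, received the vehicle. Each group held 3 samples, from 3 separate mice per group, and the sources do not say whether the groups shared mice. The cells were activated in a dish with antibodies, which limits them as a model of fate choice in an infected or tumor-bearing animal.

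T-bet (the product of Tbx21), Blimp-1 (Prdm1), ZEB2 and ID2 are known to drive or stabilize the effector program of CD8+ T cells. TCF-1 (Tcf7), LEF1, BACH2, BCL6 and ID3 are known to keep the naive, progenitor and memory programs open, and EOMES, a close relative of T-bet, takes part both in killing and in the upkeep of memory cells. LSD1 removes methyl groups from histone H3 and is recruited to genes by transcriptional repressors, so the comparison of GSK with Veh asks how the RNA of these regulators stood in cells activated with the enzyme inhibited.

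Total counts were between 18288447 and 18918811 in the Veh samples and between 19149909 and 19846720 in the GSK samples. Replicates of a group differed by more than sampling noise, since the chi-square statistic over genes was 3.95 to 9.02 times its degrees of freedom, and the highest value belonged to GSK replicates 2 and 3. Levels are given as CPM, the counts of a gene relative to the total over tested genes in its sample, scaled by TMM. Differences are log2 fold changes of GSK over Veh with their standard error (SE) and the Benjamini-Hochberg adjusted p of the quasi-likelihood test in edgeR over all 11698 genes. A gene passed at an adjusted p under 0.05, and a second threshold of 1.5-fold, the one used in the study, is named where it applies. In bulk RNA, fewer cells of a kind and less RNA per cell cannot be told apart.

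Of the 10 factors, 2 were higher in GSK, Eomes and Id2, and 5 were lower, Tcf7, Tbx21, Bach2, Lef1 and Zeb2. Over all tested genes 16.6% were higher and 15.5% lower. Past the threshold of 1.5-fold as well, 1 factor was higher, Eomes, and 4 were lower, Tcf7, Zeb2, Tbx21 and Bach2, where 2.22% of all tested genes were higher and 4.09% lower. Id3, Prdm1 and Bcl6 did not pass. The 3 GSK samples lay above the 3 Veh samples for 2 of the factors, as for 23.7% of all tested genes, and below them for 6, as for 23% of all tested genes. The median log2 fold change of the 10 was -0.51, and that of all tested genes was -0.004. Of the 4 effector-side factors, Id2 was higher, Tbx21 and Zeb2 were lower and Prdm1 did not pass. Of the 5 memory-side factors, Tcf7, Lef1 and Bach2 were lower and Id3 and Bcl6 did not pass, while Eomes, which has a part in both programs, was higher.

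**Figure D1:**
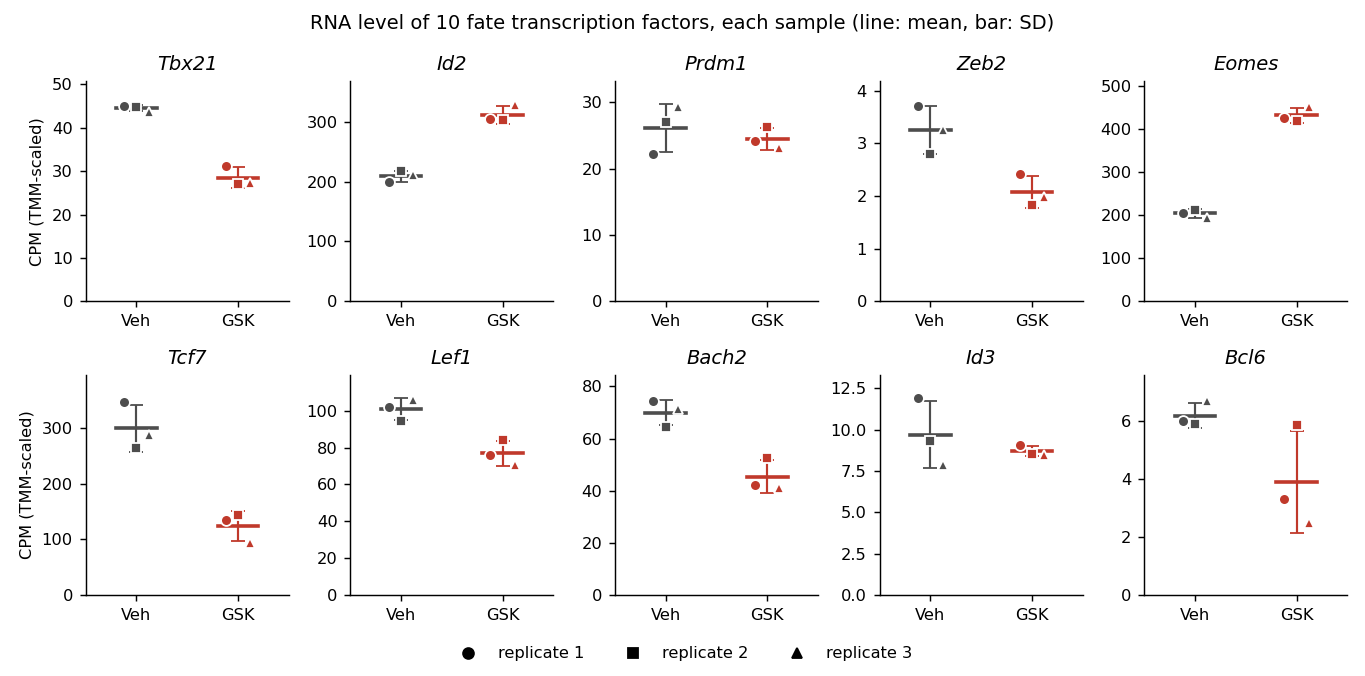
RNA level in CPM (vertical axes, each starting at 0) of the 10 factors in the 3 Veh and 3 GSK samples; symbols are replicates, horizontal lines are group means and bars are SD. Eomes stood at 194 to 213 CPM in Veh and 419 to 453 in GSK, Tcf7 at 265 to 347 and 93.1 to 143, while the points of Id3 and Prdm1 overlapped between the groups.

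**Figure D2:**
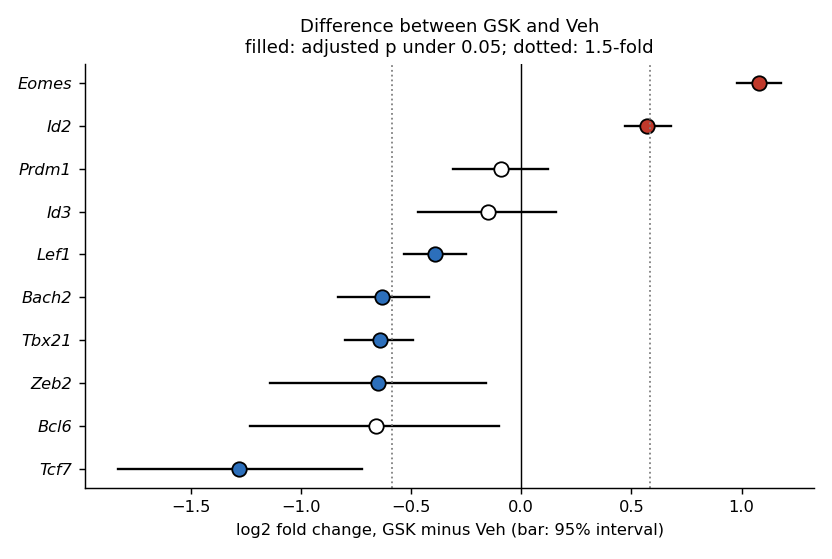
Log2 fold change of GSK over Veh (horizontal axis) of the 10 factors with its 95% interval from edgeR; filled symbols have an adjusted p under 0.05 and dotted lines mark 1.5-fold. The estimates run from -1.28 for Tcf7 to 1.08 for Eomes, and the intervals of Id3 and Prdm1 span 0.

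The T-box factors Tbx21 and Eomes and the inhibitors of DNA binding Id2 and Id3 are pairs of relatives within which the values parted, and their promoters are shown to set the regions side by side. Each sequence is the 250 bases before the start listed by RefSeq for GRCm38, 5′ to 3′ on the gene's strand. Capitals mark any match, on either strand, to 5 motifs: the E-box CANNTG, bound by basic helix-loop-helix factors, the E-box CACCTG, bound by ZEB factors and contained in the former, the T-box site AGGTGTG, the TCF/LEF site CTTTGA, and TGANTCA, a core shared by AP-1 and BACH factors.
Tbx21, chr11:97115332-97115581, minus strand: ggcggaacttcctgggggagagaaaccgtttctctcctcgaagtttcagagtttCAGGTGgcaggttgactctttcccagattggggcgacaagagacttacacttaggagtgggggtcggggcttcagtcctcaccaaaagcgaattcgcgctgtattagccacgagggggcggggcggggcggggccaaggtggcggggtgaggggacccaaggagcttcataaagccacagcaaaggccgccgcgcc
Eomes, chr9:118477939-118478188, plus strand: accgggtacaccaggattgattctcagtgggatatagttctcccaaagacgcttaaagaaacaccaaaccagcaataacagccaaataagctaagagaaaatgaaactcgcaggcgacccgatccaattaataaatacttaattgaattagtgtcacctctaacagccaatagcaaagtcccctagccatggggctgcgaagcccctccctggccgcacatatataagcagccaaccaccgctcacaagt
Id2, chr12:25096093-25096342, minus strand: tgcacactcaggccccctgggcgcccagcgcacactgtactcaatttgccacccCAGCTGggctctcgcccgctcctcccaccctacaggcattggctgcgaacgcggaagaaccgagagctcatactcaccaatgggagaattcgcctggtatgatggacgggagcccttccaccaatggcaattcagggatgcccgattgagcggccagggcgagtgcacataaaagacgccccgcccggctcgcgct
Id3, chr4:136143572-136143821, plus strand: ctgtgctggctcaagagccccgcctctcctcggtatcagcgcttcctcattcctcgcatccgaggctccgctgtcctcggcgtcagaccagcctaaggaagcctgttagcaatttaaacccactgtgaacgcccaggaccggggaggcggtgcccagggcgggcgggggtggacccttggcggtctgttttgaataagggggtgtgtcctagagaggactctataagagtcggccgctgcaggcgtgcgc

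The window of Tbx21 held 1 E-box, which also reads as the ZEB-type CACCTG on the other strand, and that of Id2 held 1 E-box. No letters of the 5 motifs were found in the windows of Eomes and Id3. Of 32536 distinct mouse promoter windows of this length, 66.2% held the E-box, 17.3% the ZEB-type E-box, 5.12% the T-box site, 13.9% the TCF/LEF site and 6.73% the AP-1 and BACH core. The windows also differed in base composition, with a GC content of 60.8% and 16 CpG dinucleotides for Tbx21, 46.4% and 8 for Eomes, and 62.8% and 18 for both Id2 and Id3, against medians of 52.4% and 6 over all windows. The RefSeq table gives 1 start for each of these 4 genes. For Tcf7, Bach2 and Prdm1 every listed window lies inside the annotated gene, so none is shown.

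Tbx21 encodes T-bet, the T-box factor that drives type 1 effector genes. In GRCm38 it occupies chromosome 11 from 97098007 to 97115331 on the minus strand, with no other annotated gene over it. Tbx21 stood at 45.0, 44.8 and 43.7 CPM in Veh and at 31.3, 27.1 and 27.2 CPM in GSK. Every GSK sample lay below every Veh sample, and the SD of the Veh samples was 1.62% of their mean. The mean was 44.5 ± 0.722 CPM in Veh and 28.5 ± 2.39 in GSK (SD, n = 3), 1.56-fold lower, with a log2 fold change of -0.64 (SE 0.071, edgeR adjusted p = 4.6e-05).

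Eomes, the other T-box gene of the pair, lies on chromosome 9 from 118478186 to 118486132 on the plus strand. It stood at 206, 213 and 194 CPM in Veh and at 427, 419 and 453 CPM in GSK, so that the groups were far apart and each narrow. The mean rose from 204 ± 9.38 to 433 ± 17.7 CPM (SD, n = 3), 2.12-fold, with a log2 fold change of 1.08 (SE 0.047, edgeR adjusted p = 1.5e-08). That difference was larger than those of 99.1% of all tested genes in the signed order. With DESeq2, under other filters and scalings and without any single sample, the log2 fold change of Eomes was between 1.05 and 1.11. The antisense gene Gm33460 shares 118 exon bases with Eomes and Gm33408 lies over its region, and neither is among the genes of the table. Eomes is also a defining factor of natural killer (NK) cells, whose markers are given below.

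The T-box pair therefore parted in opposite directions, and the ratio of their RNAs within a sample was read from counts per kb of exon. Eomes over Tbx21 was 3.08, 3.2 and 3.0 in Veh and 9.19, 10.4 and 11.2 in GSK. The ratio was 3.31-fold higher in GSK, and no sample of one group reached the other. An exact two-sided permutation test gave p = 0.1, which is the smallest that 3 samples against 3 can give (adjusted p = 0.12 over the 6 ratios computed).

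Tcf7 encodes TCF-1, the HMG-box factor of naive, progenitor and memory T cells, and was the factor with the largest estimated difference. The gene lies on chromosome 11 from 52246527 to 52283383 on the minus strand. It stood at 347, 265 and 287 CPM in Veh and at 135, 143 and 93.1 CPM in GSK. The groups were clearly apart, with Veh replicate 1 highest and GSK replicate 3 lowest. The mean fell from 300 ± 42.8 to 124 ± 26.9 CPM (SD, n = 3), 2.42-fold lower, with a log2 fold change of -1.28 (SE 0.209, edgeR adjusted p = 0.012). In signed order 0.9% of all tested genes lay at or below Tcf7. Of the genes over its region, Skp1, which encodes a subunit of ubiquitin ligases, is in the table, with 2260, 2241 and 2395 counts in Veh and 2330, 2182 and 2351 in GSK.

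Lef1, the HMG-box relative that shares binding sites and many functions with TCF-1, lies on chromosome 3 from 131110297 to 131224357 on the plus strand. It stood at 102, 94.4 and 106 CPM in Veh and at 76.1, 83.9 and 70.3 CPM in GSK. The groups did not overlap, with a gap between GSK replicate 2 and Veh replicate 2 that was narrower than the range of either group. The mean fell from 101 ± 5.79 to 76.8 ± 6.79 CPM (SD, n = 3), 1.31-fold lower and short of the 1.5-fold threshold, with a log2 fold change of -0.39 (SE 0.066, edgeR adjusted p = 0.00095). The antisense gene Gm43352 shares 1208 exon bases with Lef1 and was not analysed here.

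Both HMG-box genes were thus lower, Tcf7 by more than Lef1. Per kb of exon, Tcf7 over Lef1 was 4.56, 3.75 and 3.62 in Veh and 2.36, 2.28 and 1.77 in GSK. The ratio was 1.86-fold lower in GSK with no overlap (exact two-sided permutation test, p = 0.1, adjusted p = 0.12).

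BACH2, a bZIP repressor that holds AP-1 target genes in check and restrains effector differentiation, is encoded on chromosome 4 from 32238413 to 32586109 on the plus strand. Bach2 stood at 74.2, 64.5 and 71.2 CPM in Veh and at 42.3, 52.6 and 41.0 CPM in GSK. GSK replicate 2 was the highest of its group and still lay below every Veh sample. The mean fell from 69.9 ± 4.97 to 45.3 ± 6.35 CPM (SD, n = 3), 1.54-fold lower, with a log2 fold change of -0.63 (SE 0.092, edgeR adjusted p = 0.00068). Without Veh replicate 1, GSK replicate 1 or GSK replicate 3, Bach2 still passed, at log2 fold changes of -0.58, -0.58 and -0.56 that were short of 1.5-fold. The antisense gene Bach2os shares 537 exon bases with Bach2.

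Prdm1 encodes Blimp-1, a zinc-finger repressor of terminal effector cells, and Bcl6 encodes the zinc-finger repressor that opposes it. Prdm1 lies on chromosome 10 from 44437174 to 44528558 on the minus strand and stood at 22.2, 27.0 and 29.3 CPM in Veh and at 24.1, 26.3 and 23.1 CPM in GSK. The groups overlapped, and the Veh samples held both the lowest and the highest value. Its mean was 26.1 ± 3.61 CPM in Veh and 24.5 ± 1.59 in GSK (SD, n = 3), with a log2 fold change of -0.09 (SE 0.099, edgeR adjusted p = 0.51). The 95% interval of the fold, GSK over Veh, was 0.808 to 1.09, so a difference of 1.5-fold in either direction lies outside it.

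Bcl6, on chromosome 16 from 23965050 to 23988866 on the minus strand, was low, at 110, 110 and 127 counts in Veh and 63, 116 and 48 counts in GSK. In CPM these were 5.98, 5.9 and 6.67 in Veh and 3.31, 5.87 and 2.5 in GSK. GSK replicate 2 sat at the edge of the Veh samples while the other GSK samples were well below them. The mean was 6.19 ± 0.425 CPM in Veh and 3.89 ± 1.76 in GSK (SD, n = 3), with a log2 fold change of -0.66 (SE 0.258, edgeR adjusted p = 0.071), so Bcl6 did not pass. Without GSK replicate 2 the log2 fold change was -1.09 (edgeR adjusted p = 0.00085), and over all alternatives the adjusted p ran from 0.00085 to 0.21. Gm37419 shares 21 exon bases with Bcl6.

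BACH2 and BCL6 are both known to oppose Blimp-1, so each was set against Prdm1 within a sample. Bach2 over Prdm1 per kb was 2.02, 1.44 and 1.47 in Veh and 1.06, 1.21 and 1.07 in GSK, without overlap (1.46-fold lower, exact two-sided permutation test, p = 0.1, adjusted p = 0.12). Bcl6 over Prdm1 was 0.412, 0.334 and 0.348 in Veh and 0.21, 0.342 and 0.166 in GSK, with overlap at replicate 2 (1.59-fold lower, exact two-sided permutation test, p = 0.2, adjusted p = 0.2).

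ID2 and ID3 lack a DNA-binding region and act by capturing E proteins, and ID2 is linked to effector and ID3 to memory CD8+ T cells. Id2 lies on chromosome 12 from 25093799 to 25096092 on the minus strand, and no other annotated gene overlaps it. It stood at 199, 217 and 211 CPM in Veh and at 304, 302 and 328 CPM in GSK. All GSK samples were well above all Veh samples. The mean rose from 209 ± 9.29 to 311 ± 14.7 CPM (SD, n = 3), with a log2 fold change of 0.57 (SE 0.048, edgeR adjusted p = 5.1e-06). The difference was 1.49-fold, just short of the 1.5-fold threshold. It was past that threshold without Veh replicate 2, GSK replicate 1 or GSK replicate 2, at log2 fold changes of 0.60, 0.59 and 0.59.

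Id3, on chromosome 4 from 136143822 to 136145392 on the plus strand, stood at 11.9, 9.33 and 7.88 CPM in Veh and at 9.08, 8.55 and 8.5 CPM in GSK. The 3 GSK samples lay close together inside the range of the Veh samples. Its mean was 9.69 ± 2.01 CPM in Veh and 8.71 ± 0.323 in GSK (SD, n = 3), with a log2 fold change of -0.15 (SE 0.147, edgeR adjusted p = 0.46) and a 95% interval of the fold, GSK over Veh, of 0.722 to 1.12. Without Veh replicate 1, the highest sample, the log2 fold change was 0.02.

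Id3 over Id2 per kb was 0.114, 0.0821 and 0.0714 in Veh and 0.0571, 0.0542 and 0.0495 in GSK. Id2 therefore exceeded Id3 in every sample, and the ratio was 1.63-fold lower in GSK without overlap (exact two-sided permutation test, p = 0.1, adjusted p = 0.12).

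Zeb2 encodes a zinc-finger and homeobox repressor that acts with T-bet in terminal effector cells, and lies on chromosome 2 from 44983512 to 45117442 on the minus strand. It was the factor with the fewest counts, 68, 52 and 62 in Veh and 46, 36 and 38 in GSK. In CPM it stood at 3.7, 2.79 and 3.26 in Veh and at 2.41, 1.82 and 1.98 in GSK, without overlap. The mean was 3.25 ± 0.455 CPM in Veh and 2.07 ± 0.307 in GSK (SD, n = 3), 1.57-fold lower, with a log2 fold change of -0.65 (SE 0.228, edgeR adjusted p = 0.044). The call was lost with DESeq2 (adjusted p = 0.1), with the replicate block in edgeR (adjusted p = 0.059) and on leaving out any one sample other than Veh replicate 2, with adjusted p between 0.054 and 0.16 there. The antisense gene Zeb2os shares 359 exon bases with Zeb2, so reads of the 2 genes could not be told apart if strand was ignored.

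Tcf7 over Zeb2, a memory-side against an effector-side repressor, was 406, 410 and 381 per kb in Veh and 241, 339 and 202 in GSK. GSK replicate 2 stood between the groups but below all Veh samples, and the ratio was 1.57-fold lower in GSK (exact two-sided permutation test, p = 0.1, adjusted p = 0.12).

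**Figure D3:**
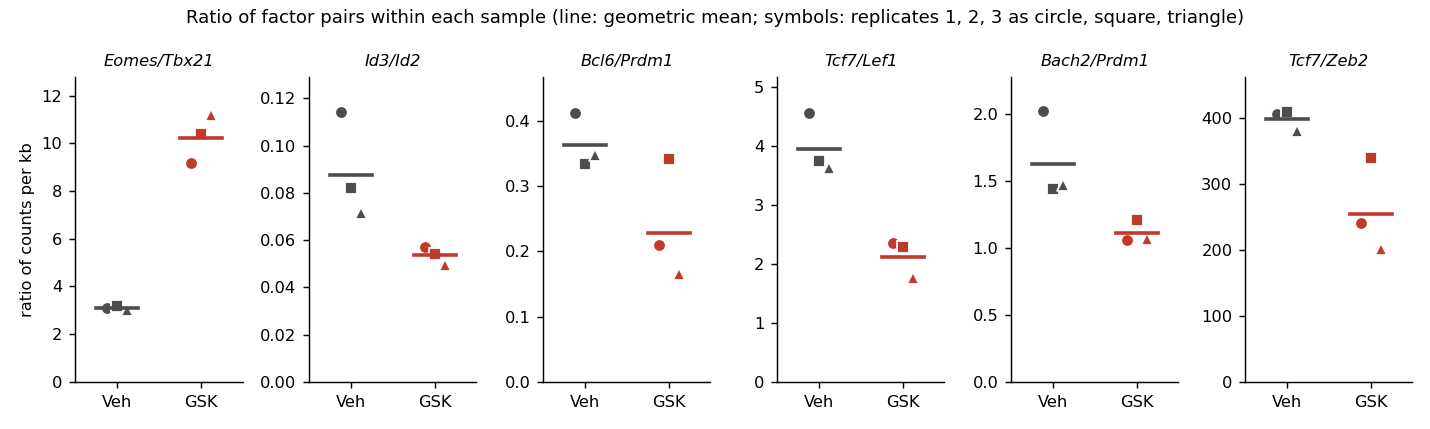
Ratio of counts per kb of exon (vertical axes, each starting at 0) for 6 pairs of factors within each of the 3 Veh and 3 GSK samples; horizontal lines are geometric means. Eomes over Tbx21 moved from 3.0 to 3.2 in Veh to 9.19 to 11.2 in GSK, and Bcl6 over Prdm1 is the pair whose groups overlap.

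To compare levels between factors, CPM were divided by the exon length of the protein-coding transcripts, giving CPM per kb. In Veh the order was Tcf7 at 114 ± 16.3, Id2 at 85.8 ± 3.81, Eomes at 55.4 ± 2.54, Lef1 at 28.7 ± 1.65 and Tbx21 at 17.9 ± 0.29 CPM per kb (SD, n = 3). Below them came Bach2 at 7.87 ± 0.559, Id3 at 7.58 ± 1.57, Prdm1 at 4.87 ± 0.673, Bcl6 at 1.75 ± 0.12 and Zeb2 at 0.284 ± 0.0397. Bach2 and Id3 were the neighbours whose samples overlapped, from 7.26 to 8.35 and from 6.17 to 9.28 CPM per kb, so their order is not set.

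In GSK the top of the order was different. Id2 came first at 128 ± 6.04, Eomes followed at 117 ± 4.8, and Tcf7 came next at 47.1 ± 10.3 CPM per kb, with Lef1 at 21.9 ± 1.94 and Tbx21 at 11.5 ± 0.962 after it (SD, n = 3). Id2 samples ran from 124 to 135 and Eomes samples from 114 to 123 CPM per kb, close but without overlap, and both were above every Tcf7 sample, which ran from 35.5 to 54.6. In Veh the lowest Tcf7 sample, at 101 CPM per kb, lay above every sample of Id2 and Eomes. At the lower end, Bach2 at 5.1 ± 0.714 and Prdm1 at 4.57 ± 0.296 overlapped, as 4.61 to 5.92 and 4.31 to 4.89 CPM per kb, and Id3 at 6.82 ± 0.252 lay above both.

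The summed level of the 10 factors was 1017, 944 and 960 CPM in Veh and 1054, 1071 and 1049 CPM in GSK. Every GSK sum lay slightly above every Veh sum, and Eomes and Id2 took more of it in GSK and Tcf7 less. All 10 carry the deposited GO term for negative regulation of transcription by RNA polymerase II, which 789 of the 16281 genes of the table carry.

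Genes with a deposited transcription factor family, 1150 in the table of which 806 were tested, give the nearest background for the 10, which are among them. Of these, 8.31% were higher in GSK and 23.4% lower, with a median log2 fold change of -0.1. Among 13 family relatives of the factors, 8 were tested, and 1 was higher and 2 were lower, with a median log2 fold change of -0.08. Zeb1, the paralog of Zeb2, was higher by 0.16 on the log2 scale (edgeR adjusted p = 0.034), with 60.0 CPM in Veh and 67.2 in GSK, and it lost its call with DESeq2, with the replicate block and without any one of Veh replicates 1, 2 and 3 or GSK replicate 1. The E protein gene Tcf12, whose product ID proteins capture, had a log2 fold change of -0.2 (SE 0.054, edgeR adjusted p = 0.012), and the T-box gene Tbx6 one of -1.34 (SE 0.291, edgeR adjusted p = 0.0039) at 2.81 CPM in Veh and 1.1 in GSK. Tcf7l2, Id1, Id4, Bcl6b and Tbx1 were too low to be tested.

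Of 24 tested genes for other regulators of CD8+ T-cell fate, 4 were higher and 9 lower, 16.7% and 37.5% against 16.6% and 15.5% of all tested genes, with a median log2 fold change of -0.06. Among tested genes with a deposited factor family the shares were 8.31% and 23.4%. Irf4, which encodes the factor that scales effector expansion with receptor signalling, rose from 182 ± 10.9 to 267 ± 17.9 CPM (SD, n = 3, log2 fold change 0.55, SE 0.057, edgeR adjusted p = 3.3e-05). Maf rose from 6.03 ± 0.094 to 10.8 ± 3.44 CPM (log2 fold change 0.84, edgeR adjusted p = 0.0092). Bhlhe40, a metabolic and cytokine regulator of activated T cells, fell from 308 ± 22.4 to 230 ± 10.8 CPM (log2 fold change -0.42, edgeR adjusted p = 0.00016), and Ikzf2, the gene of Helios, fell from 27.0 ± 2.21 to 16.6 ± 2.35 CPM (log2 fold change -0.71, edgeR adjusted p = 0.00037). Zfp683 was not analysed here. Without Veh replicate 1 or GSK replicate 1, 2 of these regulators were higher.

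Of 19 tested effector genes, 7 were higher and 3 lower, 36.8% and 15.8%, where 16.6% and 15.5% of all tested genes were, with a median log2 fold change of 0.05. Prf1, the gene of perforin and a known target of EOMES and T-bet, rose from 42.3 ± 2.38 to 90.4 ± 6.84 CPM (SD, n = 3, log2 fold change 1.09, SE 0.066, edgeR adjusted p = 3.9e-07), and Nkg7, a cytotoxic granule gene, from 421 ± 5.4 to 582 ± 31.2 CPM (log2 fold change 0.47, edgeR adjusted p = 1e-05). Gzmk, encoding granzyme K, fell from 14.8 ± 1.77 to 8.22 ± 0.682 CPM (log2 fold change -0.85, edgeR adjusted p = 0.00027) and the chemokine gene Ccl5 from 44.7 ± 1.55 to 27.4 ± 5.08 CPM (log2 fold change -0.7, edgeR adjusted p = 0.00097). Klrg1, Cx3cr1 and S1pr5, markers of terminal effector cells, were too low to be tested, at means of at most 0.221 CPM in either group. With the replicate block, 5 effector genes were lower.

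Of 19 tested memory and progenitor genes, 4 were higher and 4 lower, 21.1% each and near the 16.6% and 15.5% of all tested genes, with a median log2 fold change of -0.05. Il2ra, the gene of the high-affinity IL-2 receptor chain, rose from 854 ± 26.7 to 1290 ± 55.5 CPM (SD, n = 3, log2 fold change 0.59, SE 0.038, edgeR adjusted p = 6.4e-07), and Cd69, an early activation and residency gene, from 64.2 ± 5.5 to 90.9 ± 2.03 CPM (log2 fold change 0.5, edgeR adjusted p = 8.6e-05). Both are also genes of activated T cells. Slamf6 and Il6ra were higher as well (log2 fold changes 0.5 and 0.92, edgeR adjusted p = 0.038 and 0.02). Actn1 fell from 47.1 ± 4.9 to 32.6 ± 1.52 CPM (log2 fold change -0.53, edgeR adjusted p = 0.00037) and the costimulatory receptor gene Cd28 from 333 ± 13.9 to 269 ± 23.2 CPM (log2 fold change -0.31, edgeR adjusted p = 0.002). S1pr1 and Dapl1 were lower as well (log2 fold changes -1.23 and -1.06, edgeR adjusted p = 0.018 and 0.017). Without Veh replicate 2 or Veh replicate 3, 2 were higher, and the lower count was 2 without GSK replicate 1 and 7 without GSK replicate 2.

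**Figure D4:**
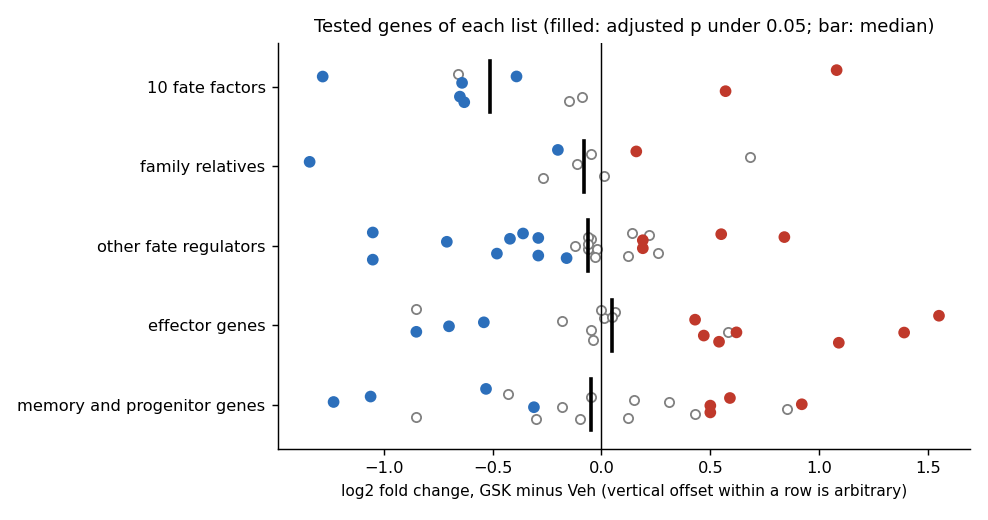
Log2 fold change of GSK over Veh (horizontal axis) of each tested gene in 5 lists, the 10 fate factors at the top; filled points have an edgeR adjusted p under 0.05 and bars are medians. The median of the 10 factors was -0.51, and the medians of the other lists were between -0.08 and 0.05.

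Markers of the labelled cell type were abundant, with a summed level of 2190 to 2300 CPM for 6 CD8+ T cell markers in Veh and 2010 to 2150 in GSK. Of these 6, the receptor complex genes Cd3d, Cd3e and Cd3g were lower, 50% against 15.5% of all tested genes, and none was higher. Cd8a, at 495 to 533 CPM in Veh and 529 to 555 in GSK, overlapped between the groups and did not pass (log2 fold change 0.07, edgeR adjusted p = 0.2). NK cell markers, which concern Eomes, Id2 and Tbx21, summed to 31.9 to 33.0 CPM in Veh and 36.8 to 45.1 in GSK. Itga2 was the most abundant of them, at means of 20.2 and 20.3 CPM. Of 5 tested, 3 were higher, Klri2, Klre1 and Tyrobp, 60% against 16.6% of all tested genes. The number was 2 with DESeq2, with either other filter on low counts and without Veh replicate 1 or 3 or GSK replicate 2 or 3. It was 1 without GSK replicate 1. Tyrobp had 5, 11 and 2 counts in Veh and 17, 21 and 13 in GSK. Klrb1c had 43, 44 and 29 counts in Veh and 70, 46 and 59 in GSK and did not pass (log2 fold change 0.54, edgeR adjusted p = 0.13). Ncr1, a defining NK receptor gene, had 0 counts in the Veh samples and 1, 0 and 0 counts in the GSK samples. The part of NK cells in the difference in Eomes was not tested beyond these values.

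B cell markers, which concern Bach2, Bcl6 and Lef1, summed to 6.04 to 8.05 CPM in Veh and 7.87 to 9.06 in GSK. Cd22 was higher (log2 fold change 2.65, edgeR adjusted p = 0.00015) at 4, 11 and 8 counts in Veh and 54, 53 and 44 in GSK. Cd79b, the other B cell marker tested and the more abundant one, had 139, 120 and 105 counts in Veh and 94, 101 and 89 in GSK and did not pass (log2 fold change -0.41, edgeR adjusted p = 0.07). The other B cell markers were too low to be tested, and all had higher means in GSK. Cd79a had 3, 1 and 0 counts in Veh and 5, 11 and 5 in GSK. Ms4a1 had 0, 2 and 2 counts in Veh and 4, 6 and 8 in GSK. Pax5 and Ebf1 each had a mean of 0.036 CPM in Veh, and 0.136 and 0.121 in GSK. Without Veh replicate 3, 1 B cell marker was lower. Myeloid markers, which concern Zeb2 and Prdm1, summed to 11.7 to 16.5 CPM in Veh and 10.3 to 13.7 in GSK, with Fcgr3 lower among 4 tested and Adgre1 at 0 counts in all GSK samples and at 0 or 1 in Veh. Cd68 was the most abundant myeloid marker, at means of 8.87 CPM in Veh and 9.33 in GSK, and did not pass. The other tested ones, Itgam and Lyz2, had lower means in GSK and did not pass either. Itgam stood at 2.44 CPM in Veh and 1.5 in GSK (log2 fold change -0.7, edgeR adjusted p = 0.073). Lyz2 stood at 0.775 and 0.306 CPM (log2 fold change -1.3, edgeR adjusted p = 0.29). The median log2 fold change of the 4 tested myeloid markers was -0.96. The Fcgr3 call was lost with DESeq2, with the replicate block, with a filter of 1 CPM and without any one of Veh replicates 1 and 3 and GSK replicates 1 and 3. The CD4+ and regulatory T cell markers summed to 43.9 to 53.2 CPM in Veh and 40.7 to 45.9 in GSK. Most of that was Zbtb7b, at means of 42.1 CPM in Veh and 37.6 in GSK. Cd4 stood at 1.19 and 0.967 CPM and Foxp3 at 3.26 and 3.55. Among these markers, Cd40lg was higher except without Veh replicate 1, Veh replicate 3 or GSK replicate 1. Dendritic cell markers summed to 0.435 to 0.805 CPM in Veh and 0.626 to 1.21 in GSK, of which 1 was tested and none passed. The part of these cells in the results was not tested.

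For each factor past both thresholds, the genes with the nearest profile were sought among the 10177 tested genes whose mean count reached 50, by the root mean square distance of log2 CPM over the 6 samples after subtracting the Veh mean. The nearest to Eomes were Pdlim5 at a distance of 0.062, Gadd45g at 0.069 and Tnf at 0.075, with log2 fold changes of 1.12, 1.15 and 1.17. The nearest to Tcf7 were Tsc22d3 at 0.124, S1pr1 at 0.126 and Thra at 0.134, with log2 fold changes of -1.15, -1.23 and -1.26. S1pr1, the receptor that guides T cells out of lymphoid tissue and one of the memory and progenitor genes above, stood at 136, 93.1 and 112 CPM in Veh and 45.1, 60.7 and 38.9 in GSK. Like Tcf7, it was highest in Veh replicate 1 and lowest in GSK replicate 3, a likeness that the search over these same samples selects for.

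Tmem170, Myo6 and Ak4 were nearest to Tbx21, each at 0.062, and Clk1, Pde4d and Rnf167 were nearest to Bach2, at 0.027, 0.035 and 0.038. Prkab2, Pex26 and Prxl2c were nearest to Zeb2, at 0.058, 0.091 and 0.112. Between the factors themselves, Tbx21 and Zeb2 were 0.126 apart and Tbx21 and Bach2 0.167 apart, while Eomes was nearest to Id2 at 0.364.

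Several factors shared an order of the GSK samples. GSK replicate 2 was the highest GSK sample for Tcf7, Lef1, Bach2, Prdm1 and Bcl6 and the lowest for Tbx21, Eomes, Id2 and Zeb2. Some of these ranks were near ties. Tbx21 stood at 27.1 CPM in GSK replicate 2 and 27.2 in GSK replicate 3, and Zeb2 at 36 and 38 counts there. Id2 stood at 302 CPM in GSK replicate 2 and 304 in GSK replicate 1. GSK replicate 3 was the lowest for Tcf7, Lef1, Bach2, Id3, Prdm1 and Bcl6 and the highest for Eomes and Id2. The values come from 3 samples with no error of their own, so this order is a description.

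**Figure D5:**
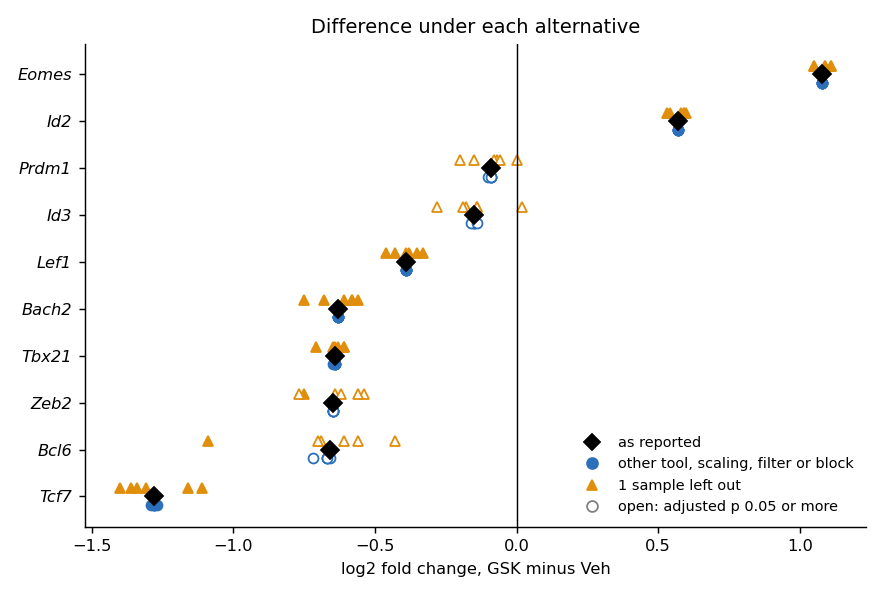
Log2 fold change of GSK over Veh (horizontal axis) of the 10 factors as reported (diamonds), under other tools, scalings, filters or the replicate block (circles), and with 1 sample left out (triangles); open symbols have an adjusted p of 0.05 or more. Eomes stayed between 1.05 and 1.11 and Tcf7 between -1.4 and -1.11, while Bcl6 ran from -1.09 to -0.43.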

How the data were processed

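The authors sequenced polyadenylated RNA as stranded libraries, trimmed the reads with Trimmomatic, mapped them to GRCm38 with HISAT2 (version 2.1.0) and counted them per gene with HTSeq (version 0.11.2). The deposited values are whole counts without normalization. The annotation release and the strand setting are not given in the sources used here, so counts of overlapping genes are uncertain. The authors' Cufflinks values and DESeq2 calls were not used.

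The 10 factors, the gene lists and the tests were chosen with earlier results of these data known. Version 4.0.16 of edgeR, run in R 4.3.3, compared the 3 GSK with the 3 Veh samples by its robust quasi-likelihood test, TMM scaling, filterByExpr and Benjamini-Hochberg adjustment over 11698 genes. SE were derived from the test statistic. Genes named from each list were all factors and, per list, up to 2 higher and 2 lower genes of smallest p. Further genes were named because they were not tested, overlapped a factor or had the nearest profile. Not every untested or overlapping gene is named. Slamf6, Il6ra, Dapl1, Cd3d, Cd8a, Cd79b, Ncr1, Tyrobp, Itga2, Adgre1, Cd68, Zbtb7b, Cd4 and Foxp3 were named after their values were seen. The same holds for Klrb1c, Itgam, Lyz2, Cd79a, Ms4a1, Pax5 and Ebf1. Levels per kb used exon unions of protein-coding GENCODE M21 transcripts, and ratios, with 0.5 added to counts, were tested by exact permutation. Promoters and gene positions are from RefSeq for GRCm38. Both groups use replicate numbers 1 to 3. The correlations of the deviations of same-numbered samples were -0.052, -0.081 and 0.16. A replicate block entered an alternative and not the main test. Nothing in the sources ties same-numbered cultures to 1 mouse. The other alternatives were DESeq2 (version 1.42.0), RLE size factors, 2 filters on low counts, a CPM ratio with a prior count of 2, and leaving out each sample. The edgeR script was tested on simulated counts. No count column was left unmapped. A further gene of the marker lists is not reported here and is left out of their sums.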

Additional observations from a re-analysis of the deposited data

How the results depend on the processing

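Eomes, Id2, Tcf7, Tbx21, Bach2 and Lef1 kept their direction and an edgeR or DESeq2 adjusted p under 0.05 under all 11 alternatives. Zeb2 kept a log2 fold change of -0.65 with DESeq2 and with the replicate block but did not pass there (adjusted p = 0.1 and 0.059). With 1 sample left out, Zeb2 ran from -0.77 to -0.54, Bcl6 from -1.09 to -0.43 and Id3 from -0.28 to 0.02, the last with its sign turned. The number of factors lower past 1.5-fold then ran from 2 to 4, with 2 (Tbx21 and Tcf7) without Veh replicate 1, GSK replicate 1 or GSK replicate 3, and the number higher past 1.5-fold from 1 to 2. With the replicate block, 2 factors were higher and 4 lower, and apart from Zeb2 no call on a factor changed. Over all genes, the 1941 higher and 1819 lower genes became 1288 and 1281 without GSK replicate 1, and the cause was not tested. All 6 ratios kept their direction under their alternatives. Of 220 recomputed counts of the other lists, 195 stayed within 1.5 times of the value given, 22 were smaller and 3 larger. Zeb2 and Bcl6 rest on at most 127 counts a sample, and 3 samples a group keep exact tests of ratios at p = 0.1 or more.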
